A study of Mus musculus with 4 samples.

Results

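Cells that carried transcripts of Il2ra, the CD25 chain of the interleukin-2 receptor, but almost none of Cd8 were picked out of single-cell data on mouse thymocytes. A cell was taken when it held 1000 or more unique molecules (UMIs), 2 or more UMIs of Il2ra and at most 1 UMI of Cd8a and Cd8b1 together. In the autonomy library 22 of 4414 cells with 1000 or more UMIs met the rule, and in the turnover library 108 of 4227 did, which makes 130 of 8641 cells. They are called the gated cells here, where the gate is set on transcript counts and not on antibody staining. Il2ra, Cd8a and Cd8b1 chose the cells, so their values are a description only.

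Developing T cells pass through a stage without CD4 and CD8, called double negative. At the DN3 step they display CD25, receive Notch signals from the thymic epithelium and rearrange the T cell receptor beta locus (TRB), while the gamma and delta loci rearrange alongside. A productive beta chain pairs with the invariant pre-TCR alpha chain, encoded by Ptcra, and this receptor drives β-selection: the cell divides, switches off Il2ra, gains CD8 and then CD4 and turns into a double positive cell, which rearranges the alpha locus (TRA).

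Wild-type thymi had been transplanted and were studied 28 days later under conditions the submitters call autonomy and turnover. Thymus autonomy is the term for T cell production by progenitors that persist within the thymus, and turnover for production by progenitors that are replaced from outside it. The labels describe neither the hosts nor how many animals or thymi went into a library. Thymocytes of the DN3 to DN4, immature single positive and double positive stages had been sorted, and each condition had 1 droplet 5′ gene expression library and 1 T cell receptor V(D)J library. With 1 library per condition there are no replicates, so no p-value is given, all intervals cover counting error only, and libraries are compared, not conditions.

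The autonomy table held 4587 cells and 16388810 UMIs, and the turnover table held 4374 cells and 20163286 UMIs. The V(D)J tables listed 11821 contigs for autonomy and 12034 for turnover. The libraries shared 31 cell barcodes, none of them a gated cell, and doublets were neither called nor removed.

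The gated cells were deeply sampled. In turnover they held a median of 8425.5 UMIs per cell (range 1898 to 27870), against 2089 in the 4119 other cells, and a median of 2664 detected genes against 1209. Mitochondrial transcripts made up a median of 3.22% of the UMIs in the gated cells and 2.78% in the other cells, and 3 gated cells exceeded 10%. In autonomy the 22 gated cells held a median of 6879 UMIs (2557 to 31522), against 2426.5 in the 4392 other cells. A rule that asks for 2 molecules of 1 gene takes deep cells more often, so ratios of summed counts are accompanied, where it matters, by cells thinned to 1000 UMIs or by the comparison with the 682 other turnover cells of 5000 or more UMIs.

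The share of gated cells was 0.498% in autonomy (exact Clopper-Pearson 95% interval 0.313 to 0.754) and 2.555% in turnover (2.10 to 3.08). The sort set which stages were loaded, and its part in these shares was not tested. Il2ra itself was not scarce in autonomy, where 369 cells carried 2 or more of its UMIs against 136 in turnover. Most of them carried Cd8 as well: the gated cells were 22 of these 369 cells in autonomy (5.96%, 3.77 to 8.89) and 108 of 136 in turnover (79.4%, 71.6 to 85.9). Cells with Il2ra together with 2 or more Cd8 UMIs made up 7.86% of the autonomy library and 0.662% of the turnover library.

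**Figure D1:**
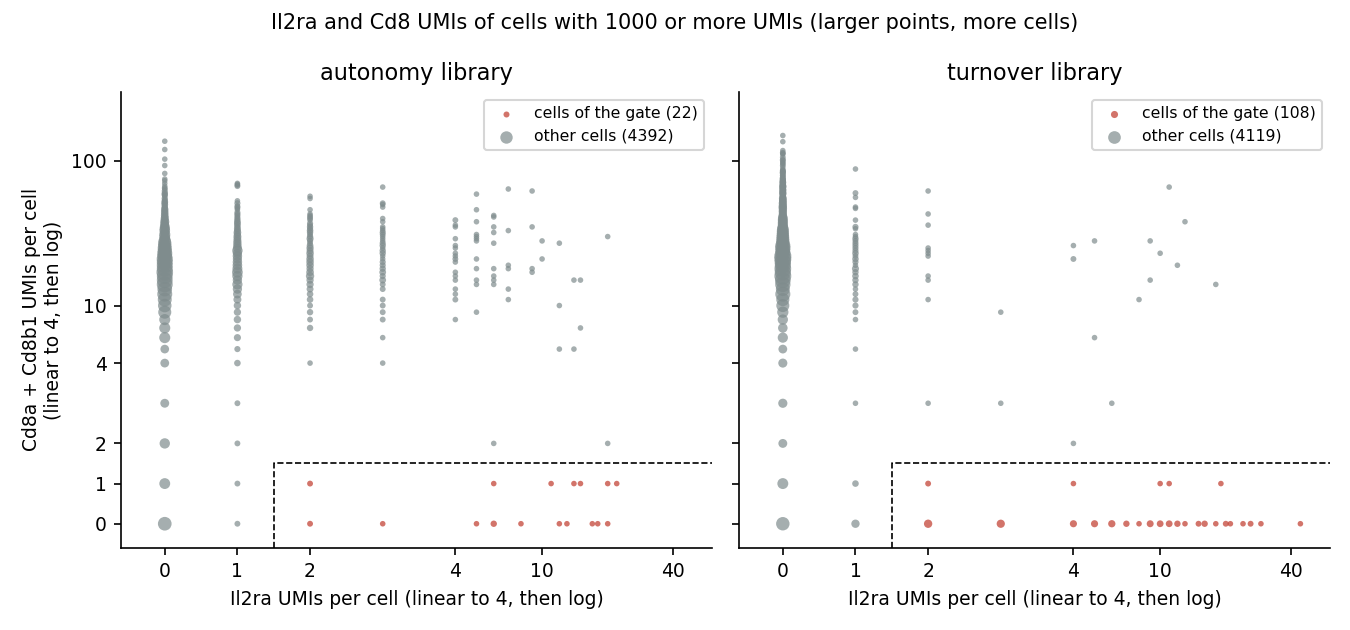
Il2ra UMIs (x) and summed Cd8a and Cd8b1 UMIs (y) of each cell with 1000 or more UMIs, in the autonomy library (left) and the turnover library (right), with larger points for more cells and the dashed lines marking the gate. In turnover 108 cells lie inside the gate and 28 above it, while in autonomy 22 lie inside and 347 above it.

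At the edge of the gate in turnover, 19 gated cells had exactly 2 Il2ra UMIs and 22 cells just outside had 1, while 6 gated cells had exactly 1 Cd8 UMI and 1 cell just outside had 2. In autonomy, 4 gated cells had exactly 2 Il2ra UMIs and 4 just outside had 1, while 8 gated cells had 1 Cd8 UMI and 2 just outside had 2. The median Il2ra count was 7 UMIs in the gated autonomy cells (highest 22) and 6 in the gated turnover cells (highest 44). Levels are given as CPM, the summed UMIs of a gene scaled by all UMIs of the same cells. Il2ra stood at 877 CPM in the gated cells of autonomy and 830 CPM in those of turnover.

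The turnover cells carried the other markers of the DN3 stage. Of Ptcra, Notch1, Dntt and Tcrg-C1, which the gate did not use, 66 of the 108 cells had a UMI of all 4, 38 of 3, 3 of 2 and 1 of none. Ptcra was seen in 88 cells (median 3 UMIs, highest 17), Notch1 in 99 (median 3, highest 10), Dntt in 107 (median 15, highest 68) and Tcrg-C1 in 90 (median 3, highest 55). The cells with exactly 2 Il2ra UMIs were close to the whole set, with 399 CPM of Ptcra, 370 CPM of Notch1 and 1627 CPM of Dntt. Cd4, which the gate did not use either, had 0 UMIs in the gated turnover cells, where 393 would be expected at the rate of the other cells. The limit on Cd8 removes double positive cells, so the contrast in Cd4 follows in part from the gate.

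The label did not hold for all of the autonomy cells. There, 8 of the 22 gated cells had a UMI of all 4 markers, 4 had 3, 3 had 2 and 7 had none. The autonomy cells are therefore described on their own further below, and the gene comparisons rest on turnover, where the gated cells number more than 50.

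In turnover 6379 genes were compared, those with at least 20 UMIs in the gated cells or 20 expected there at the rate of all cells. A ratio of 2 or more in CPM, gated over other cells, was found for 451 of them (7.07% of those compared) and a ratio of 0.5 or less for 608 (9.53%). These counts include Il2ra, Cd8a and Cd8b1, which chose the cells, and without them 450 of 6376 genes were higher and 606 lower. Of the compared genes, 619 passed only through the sum in the gated cells and so could only be higher. With genes that passed by their expected count alone, 153 of 5760 (2.66%) were higher and 608 (10.6%) lower. The median gene was at -0.11 on the log2 scale. Each count of higher or lower genes in a list below is to be read beside the shares of 7.07% and 9.53%.

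The pre-TCR alpha chain was the first of the markers. Ptcra had 418 CPM in the gated turnover cells (435 UMIs) and 91.0 CPM in the other cells (1730 UMIs), a ratio of 4.59 (95% interval 4.13 to 5.11). In autonomy the gated cells had 467 CPM (385 to 560) and the other cells 378 CPM. The gated autonomy cells are a mixture, described further below, in which 10 cells held 105 of the 115 Ptcra UMIs. When every turnover cell was thinned to 1000 UMIs, 38.0% of the gated cells and 7.21% of the other cells kept a Ptcra UMI, against 81.5% and 19.7% before thinning.

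The Ptcra start site (RefSeq, GRCm38.p6, minus strand, chr17:46763663-46763962, the gene spanning 46755663 to 46763712) is shown because, of the 4 markers, Ptcra has the lowest ratio between gated cells with and without a productive beta chain, as given further below. The window runs from 250 bases before the start to 50 after it, and capitals mark matches to TGGGAA, the core bound by the Notch partner RBPJ, searched on both strands.

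Ptcra promoter: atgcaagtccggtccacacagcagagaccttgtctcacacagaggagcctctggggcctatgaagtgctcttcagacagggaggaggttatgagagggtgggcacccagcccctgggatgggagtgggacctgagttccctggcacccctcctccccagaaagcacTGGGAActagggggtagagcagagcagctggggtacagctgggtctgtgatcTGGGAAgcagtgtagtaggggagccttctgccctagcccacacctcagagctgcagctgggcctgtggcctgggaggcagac

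The window held 2 matches to TGGGAA, and 3.79% of 32851 promoter windows of the same length held 2 or more, while 25.6% held any. It also held 3 matches to CAGCTG, an E-box that E proteins such as those of Tcf3 and Tcf12 bind, left in lower case. At least 3 were found in 0.207% of the windows and any in 16.3%. The motifs share no letters here, and such matches are a description of the sequence, not of binding.

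Notch1, the receptor that commits progenitors to the T lineage, had 365 CPM in the gated turnover cells (380 UMIs) and 51.6 CPM in the other cells (981 UMIs), a ratio of 7.08 (6.27 to 7.97). Notch3, a second receptor of the family and itself a Notch target, had 59 UMIs in 42 gated cells (56.7 CPM) and 83 UMIs in the other cells (4.37 CPM), a ratio of 13.0 (9.14 to 18.4). Both receptors were higher in the gated cells in this library.

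Among the Notch targets, Hes1, a repressor needed for early T cell growth, had 59 UMIs in 39 gated cells (56.7 CPM) against 31 UMIs in all other cells (1.63 CPM), a ratio of 34.8 (22.1 to 55.6). Dtx1, which encodes the Notch regulator Deltex1, had 29.8 CPM in the gated cells and 2.21 CPM in the other cells, a ratio of 13.5 (8.19 to 21.96). Myc, which Notch and pre-TCR signals both sustain, had 347 CPM in the gated cells and 98.2 CPM in the other cells, a ratio of 3.53 (3.15 to 3.95). The cell cycle inhibitor Cdkn1b was lower, with 39.4 CPM in the gated cells and 144 CPM in the other cells, a ratio of 0.273 (0.195 to 0.371), which was 0.576 among cells of 5000 or more UMIs. Thinned to 1000 UMIs, the ratio was 14.02 for Notch1, 23.5 for Notch3, 343 for Hes1, 21.8 for Dtx1, 12.8 for Myc and 0.0746 for Cdkn1b. These thinned ratios have no intervals. The one for Hes1 is the least certain in size, since the other cells held only 31 Hes1 UMIs before thinning. Of the 7 genes compared in the list of Notch receptors and targets, 6 were at least 2-fold higher and 1 was lower, with a median of 2.82 on the log2 scale. Of those 7, 3 passed only through the gated cells. Targets with fewer molecules were not compared: Lfng had 16 UMIs in the gated and 16 in the other cells, Nrarp 5 and 26, Hes5 3 and 14, and Erg 9 and 1. These are raw counts, and the other cells held far more UMIs in all.

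Dtx1 stood apart from Hes1 between the libraries. The gated autonomy cells had 166 CPM of Dtx1 (119 to 226), against 29.8 CPM in those of turnover, and the other autonomy cells had 246 CPM. Hes1 had 73.1 CPM (43.3 to 116) in the gated autonomy cells and 6.99 CPM in the other autonomy cells. Hes1 was thus higher in gated than in other cells in both libraries. Dtx1 was higher in the gated cells of turnover and lower in those of autonomy, and this difference was not tested. The gated autonomy cells are a mixture, described further below, so their values here hold for the mixture and not for DN3-like cells alone.

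The gamma and delta receptor genes gave some of the largest differences. Tcrg-C1, the first gamma constant gene, had 630 UMIs in the 108 gated turnover cells (605 CPM) against 315 UMIs in the 4119 other cells (16.6 CPM), a ratio of 36.5 (31.9 to 42.0), which was 91.0 in thinned cells. Tcrg-C2 had 544 CPM in the gated cells and 15.9 CPM in the other cells, a ratio of 34.2 (29.7 to 39.5), and Tcrg-C4 had 157 CPM and 8.15 CPM, a ratio of 19.2 (15.3 to 24.1). The delta constant gene Trdc had 289 CPM in the gated cells and 84.6 CPM in the other cells, a ratio of 3.42 (3.01 to 3.87), which was 6.77 in thinned cells. The transcripts were spread over the cells, Tcrg-C2 being found in 96, Tcrg-C1 in 90, Tcrg-C4 in 53 and Trdc in 63 of the 108. Thinned to 1000 UMIs, 38.9% of the gated cells and 0.534% of the other cells kept a Tcrg-C2 UMI, against 88.9% and 2.501% before thinning.

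Gamma variable segments went the same way. Trgv2 had 1223 CPM in the gated cells (85 cells) and 62.4 CPM in the other cells, a ratio of 19.6 (18.1 to 21.2), and Tcrg-V4 had 252 CPM and 13.9 CPM, a ratio of 18.1 (15.2 to 21.6). All 6 compared genes of the gamma and delta list were at least 2-fold higher, with a median of 4.28 on the log2 scale, and 1 of them passed only through the gated cells. Gamma constant genes are near copies of each other, and how the authors' counting split their reads is not given in the sources used here. The V(D)J tables were made for alpha and beta chains, so a productive gamma chain was not looked for.

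The list of 14 genes of the γδ lineage held 154 UMIs in 55 of the 108 gated turnover cells, and its sum was 148 CPM in the gated cells and 563 CPM in the other cells. Of its 4 compared genes 1 was at least 2-fold higher, and that gene passed only through the gated cells, while 3 were lower. The higher one was 5830411N06Rik, with 20 UMIs in 11 gated cells and 41 UMIs in the other cells. Sox13, a γδ lineage factor, had 5 UMIs in the gated cells and 8 in the other cells, Maf had 6 and 30, and Blk had 9 and 30, too few to compare. These are raw counts, out of 1041010 UMIs in the gated cells and 19016926 in the other cells, so they do not read as lower. Id3, which strong γδ or pre-TCR signals induce, had 91.3 CPM in the gated cells and 309 CPM in the other cells, a ratio of 0.295 (0.239 to 0.362), which was 0.457 among cells of 5000 or more UMIs. Id3 belongs to the list and supplied most of its sum in both sets of cells, so the sum of the list is mainly a reading of Id3. Gamma transcripts were unevenly spread, and 8 gated cells held 20 or more Tcrg-C1 UMIs each.

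The chains of the receptor complex differed from each other in their ratios. Cd3g had 2784 CPM in the gated turnover cells and 1168 CPM in the other cells, a ratio of 2.38 (2.29 to 2.48), and was found in all 108 gated cells. Cd3d and Cd3e lay close to the other cells, at ratios of 1.25 (1.19 to 1.32) and 1.11 (1.06 to 1.17). The zeta chain gene Cd247 had 299 CPM in the gated cells and 597 CPM in the other cells, a ratio of 0.501 (0.446 to 0.560). The beta constant genes were lower, Trbc1 at a ratio of 0.569 (0.521 to 0.621) and Trbc2 at 0.554 (0.526 to 0.583). Trac, the alpha constant gene, had 3 UMIs in the gated cells where 133 would be expected, against 2438 in the other cells. Among the kinases and adaptors that carry the signal, Lck was at a ratio of 0.730 (0.691 to 0.771), Lat at 0.813 (0.766 to 0.863) and Zap70 at 0.295 (0.1996 to 0.4196). These values moved with depth: among cells of 5000 or more UMIs the ratio was 2.13 for Cd3d, 1.82 for Cd3e, 1.39 for Lck and 1.30 for Lat, so no direction is given for them. Zap70 had a ratio of 0.536 there and no longer a 2-fold difference. For Cd247 it was 0.9995 there, for Trbc1 0.839 and for Trbc2 0.818, so most of the difference in these 3 genes was not kept.

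**Figure D2:**
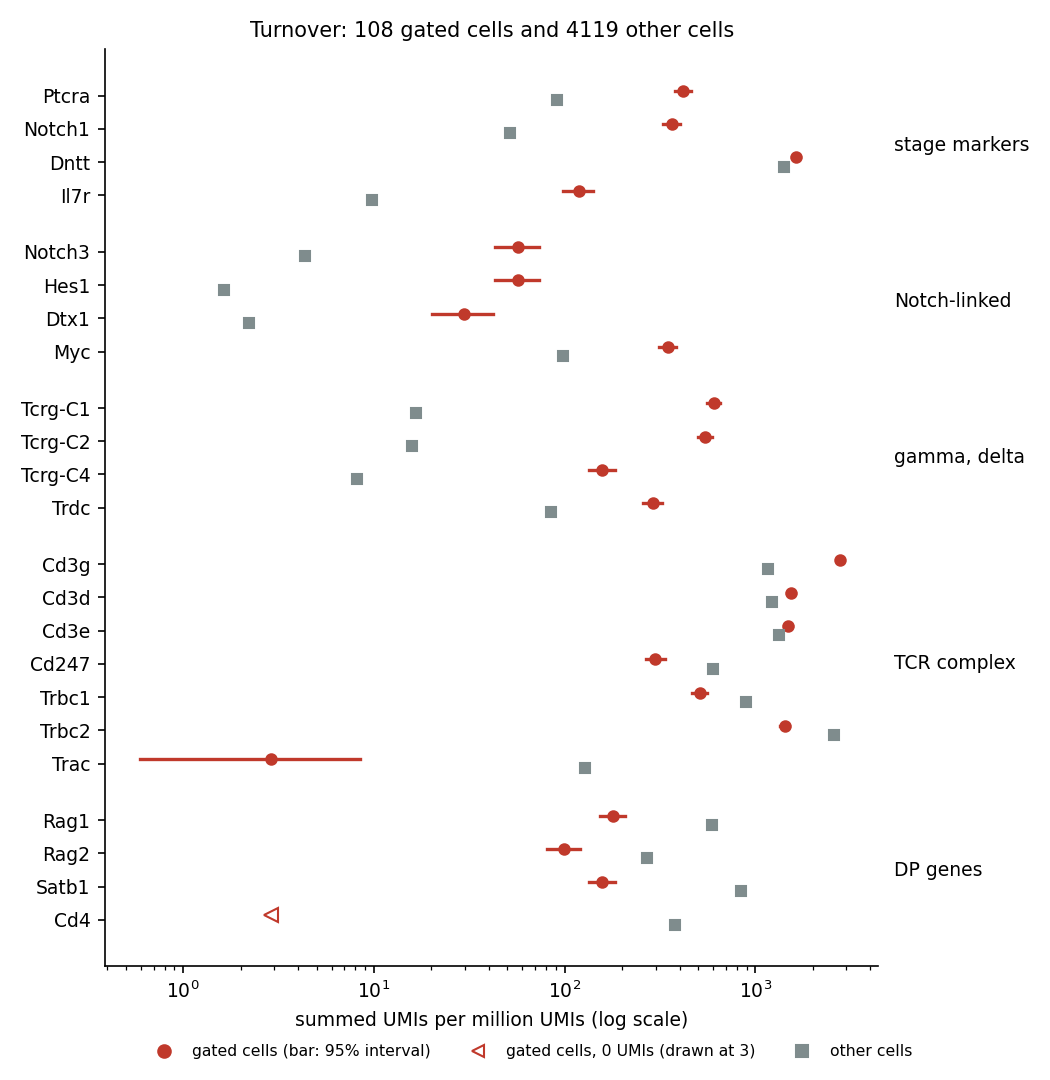
Summed CPM (log x axis) of genes grouped by role in the turnover library, for the 108 gated cells (red circles with exact 95% Poisson intervals, open triangle at the 3-count floor where no UMI was seen) and the 4119 other cells (grey squares). Gamma, delta and Notch-linked genes lie to the right in the gated cells, Cd3d, Cd3e and Dntt nearly coincide, and Trac and Cd4 lie far to the left.

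Recombination genes depended on the cells they were set against. Rag1, the recombinase gene, had 179 CPM in the gated turnover cells and 592 CPM in the other cells, a ratio of 0.302 (0.260 to 0.349), and Rag2 had 98.9 CPM and 271 CPM, a ratio of 0.365 (0.297 to 0.443). Among cells of 5000 or more UMIs the ratio of Rag1 was 1.29, and against the 161 other cells with at most 1 Cd8 UMI it was 3.94. For Rag2 these ratios were 0.836 and 3.78. The nuclease gene Dclre1c had a ratio of 0.429 (0.277 to 0.637), which was 1.17 among cells of 5000 or more UMIs. Dntt, the terminal transferase that adds untemplated bases at the joints, had 1631 CPM in the gated cells and 1411 CPM in the other cells. Its ratio was 1.16 (1.10 to 1.21), 0.773 after thinning and 1.63 among cells of 5000 or more UMIs, so no direction is given for it.

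The T lineage factors were mixed. Of 15 compared, 2 were at least 2-fold higher and 3 lower, and 1 of the 15 passed only through the gated cells. Over all compared genes 7.07% were higher and 9.53% lower. Runx1, a partner of Notch in early commitment, had 285 CPM in the gated cells and 106 CPM in the other cells, a ratio of 2.69 (2.37 to 3.04), and Runx3 had a ratio of 4.03 (2.66 to 5.94). Bcl11b, which seals T lineage commitment, had a ratio of 1.23 (1.10 to 1.37) and Gata3 one of 1.55 (1.24 to 1.90). Tcf7 had 408 CPM in the gated cells and 1114 CPM in the other cells, a ratio of 0.366 (0.332 to 0.403), and Lef1, its relative, had a ratio of 0.490 (0.406 to 0.586). Among cells of 5000 or more UMIs these were 0.530 for Tcf7 and 0.629 for Lef1. The E protein genes Tcf3 and Tcf12 had ratios of 1.024 (0.781 to 1.32) and 0.962 (0.816 to 1.13), and the third, Tcf4, one of 2.28 (1.76 to 2.91), which was 1.27 after thinning.

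Genes of the double positive stage were mostly lower in the gated cells. Of 18 compared, 12 were at least 2-fold lower and 1 was higher, with a median of -1.59. The gate removes double positive cells through its limit on Cd8, so this contrast follows in part from the gate. The list also holds Rag2, whose ratio depended on the cells it was set against. Cd4 had 0 UMIs in the gated cells against 7183 in the other cells, at least 131-fold lower when the gated sum is set at 3 UMIs. Rmnd5a had 15.4 CPM in the gated cells and 600 CPM in the other cells, a ratio of 0.0256 (0.0146 to 0.0417). Satb1, a genome organiser of double positive cells, had 157 CPM and 836 CPM, a ratio of 0.187 (0.160 to 0.219). Ccr9, the receptor for the thymic chemokine CCL25, had 138 CPM in the gated cells and 913 CPM in the other cells, a ratio of 0.152 (0.128 to 0.179). Aqp11 and Arpp21 had ratios of 1.01 (0.932 to 1.10) and 0.972 (0.897 to 1.05), while Ly6d had one of 1.99 (1.90 to 2.09) and Cd24a one of 2.04 (1.89 to 2.202).

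Il7r and Bcl2 were higher in the gated cells, and other genes of their lists were mixed. Il7r, the interleukin-7 receptor chain on which double negative cells depend, had 118 CPM in the gated turnover cells (54 cells) and 9.78 CPM in the other cells, a ratio of 12.1 (9.54 to 15.3). Bcl2, the survival gene downstream of that receptor, had 106 CPM and 17.04 CPM, a ratio of 6.20 (4.95 to 7.72). Bcl2l1, which encodes the Bcl-xL protein of double positive cells, had 8 UMIs in the gated cells and 1567 in the other cells, a ratio of 0.0933. Of the 8 compared genes of the BCL2 family, 1 was at least 2-fold higher and 1 lower, with a median of -0.39. The shares over all compared genes were 7.07% higher and 9.53% lower. Of the 9 compared genes of the interleukin-7 receptor and STAT5 list, 4 were at least 2-fold higher and 1 was lower, where 2 of the 9 passed only through the gated cells and 7.07% of all compared genes were higher. The class I gene H2-K1 had 397 CPM in the gated cells and 52.7 CPM in the other cells, a ratio of 7.53 (6.70 to 8.45).

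The D cyclins split. Ccnd2 had 248 CPM in the gated turnover cells and 15.4 CPM in the other cells, a ratio of 16.1 (13.6 to 19.1), while Ccnd3, which β-selected cells need in order to expand, had 155 CPM and 963 CPM, a ratio of 0.161 (0.137 to 0.188). Their partner kinase gene Cdk6 had a ratio of 6.84 (6.15 to 7.60). The inhibitor gene Cdkn1a, known as p21 and a target of p53, had 89 UMIs in 45 gated cells (85.5 CPM) against 73 UMIs in all other cells (3.84 CPM), a ratio of 22.3 (16.2 to 30.8). It passed only through the gated cells. Of the 9 compared genes of the list of cell cycle inhibitors and D cyclins, 3 were at least 2-fold higher and 5 lower, beside 7.07% and 9.53% of all compared genes. The 3 higher ones were Ccnd2, Cdk6 and Cdkn1a. In autonomy Cdkn1a had 0 UMIs in the gated cells, which allows up to 12.2 CPM when 3 counts are taken as the floor, and 1.81 CPM in the other cells.

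Among the genes of cell division, G2/M genes were lower in sum while most S phase genes lay within 2-fold. Among 35 compared genes of the G2/M list, 32 had a ratio of 0.5 or less, with a median of -1.63. Of 34 S phase genes 5 were lower and none higher, with a median of -0.34, where 9.53% of all compared genes were lower. Mki67, a marker of cycling cells, had 94.1 CPM in the gated cells and 298 CPM in the other cells, a ratio of 0.316 (0.256 to 0.386), and Top2a had a ratio of 0.299 (0.256 to 0.347). The sums weigh deep cells most, and 682 other cells of 5000 or more UMIs held 11767509 of the 19016926 UMIs of the other cells. By cell, after thinning, 4.63% of the gated cells (1.52 to 10.5) and 6.26% of the other cells (5.54 to 7.05) kept an Mki67 UMI, against 18.5% and 15.1% before thinning. The thinned median share of G2/M UMIs was 0.1% in both sets, and that of S phase UMIs was 0.2% in the gated cells and 0.1% in the other cells (0.171% and 0.104% before thinning). The sums and the shares by cell thus differ, and no direction is given for division.

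Other lists were read in the same way, beside 7.07% higher and 9.53% lower over all compared genes. Ribosomal protein genes lay slightly above the median gene, with 0 of 20 past 2-fold and a median of 0.36, and oxidative phosphorylation genes slightly below, with 0 of 20 and a median of -0.30. Of 8 compared interferon response genes 5 were at least 2-fold higher, with a median of 1.71, and 1 of the 8 passed only through the gated cells. Rtp4 had 105 CPM in the gated cells and 19.8 CPM in the other cells, a ratio of 5.28 (4.23 to 6.55), and Isg15 had 109 CPM and 25.4 CPM, a ratio of 4.27 (3.45 to 5.26). Of 13 cholesterol synthesis genes 2 were at least 2-fold higher and none lower, with a median of 0.69, but 1 of the 13 passed only through the gated cells and the share of higher genes over all compared was 7.07%. Of 8 genes that T cell receptor signals induce, 6 were lower and none higher. Among them Cd5 had 3 UMIs in the gated cells and 2427 in the other cells. Of 6 linker histone genes 5 were lower, and of 11 adhesion genes 2 were higher and 5 lower.

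**Figure D3:**
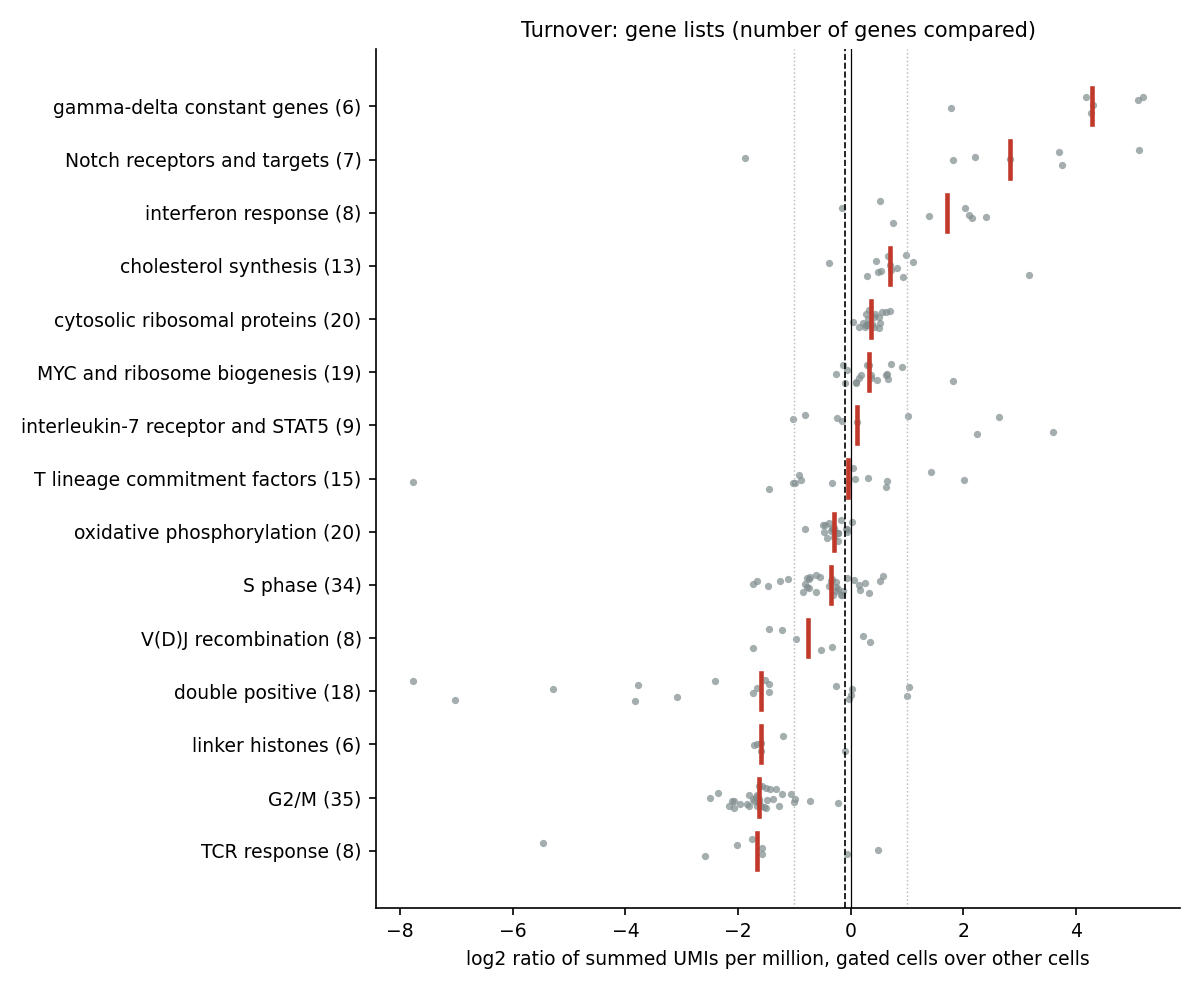
Log2 ratios of summed CPM, gated over other cells in turnover, for each compared gene (grey points) of 15 lists with the list median (red bar), the number of genes compared in parentheses, dotted lines at 2-fold and a dashed line at the median of all compared genes (-0.11). Gamma and delta, Notch and interferon genes lie to the right, and double positive, linker histone, G2/M and T cell receptor response genes to the left. A gene with no UMI in the gated cells is drawn at its 3-count bound.

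The 15 highest ratios belonged to genes that were almost silent in the other cells, so the gated sums let them pass. Khdc1a (chromosome 1, 21349677 to 21352199), a KH domain gene, had 120 UMIs in 48 gated cells against 5 UMIs in the 4119 other cells, a ratio of 438 (183 to 1375). Gm4632, a long noncoding RNA gene on chromosome 14, was the most widespread of them, with 561 UMIs in 95 gated cells against 195 UMIs in the other cells, a ratio of 52.6 (44.6 to 62.2). The imprinted noncoding RNA H19 had 47 UMIs in 18 gated cells against 9, a ratio of 95.4 (46.2 to 221).

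The other 12 lay between ratios of 39.4 and 140. Mst1r, a receptor kinase gene, had 23 UMIs in 20 gated cells and 3 in the other cells, a ratio of 140 (42.3 to 729). The others were Itgb4, the integrin beta 4 gene, with 35 in 22 cells, the protease inhibitor gene Serpinb1a with 42 in 30 cells and the phospholipase D family gene Pld4 with 158 in 60 cells. Tifa, a signalling adaptor gene, had 31 UMIs in 26 cells, and the complement regulator gene Cd59a had 37 in 26 cells. Epb41l4b, Gm5111, Scin, Ctla2a, BC028528 and Atp8b4 completed the set. Each of the 15 was found in at least 18 gated cells, and no single cell held more than 24 UMIs of any of them. Outside this rule, Myl10, a myosin light chain gene, had 1030 UMIs in 105 gated cells (989 CPM) against 483 UMIs in the other cells (25.4 CPM), a ratio of 39.0 (34.9 to 43.5). Thinned, 68.5% of the gated cells and 1.43% of the other cells kept a Myl10 UMI, against 97.2% and 5.90% before.

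The 15 lowest had no UMI in any gated turnover cell. Besides Cd4 they held 3 receptor variable segments: Trbv31 with 4533 UMIs in the other cells, Trbv2 with 2214 and Trav3-3 with 458. Adgre5, which encodes the adhesion receptor CD97, had 1182 UMIs in the other cells and was at least 21.6-fold lower at the 3-count floor. Slc7a11, a cystine transporter gene, had 753 and was at least 13.7-fold lower. The others were Gm15340, Gm44175, Glcci1, Gm26740, BB031773, Adam12, Nav2, Gm12256 and Tdrp, with bounds between 8.45 and 60.01.

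Markers of other cell types were checked over whole lists. The regulatory T list of 12 genes summed to 261 CPM in the gated cells and 161 CPM in the other cells, with 2 of its 4 compared genes past 2-fold, both of which passed only through the gated cells. Ctla4, an inhibitory receptor gene, had 69.2 CPM in the gated cells and 4.89 CPM in the other cells, a ratio of 14.1 (10.3 to 19.4), and Capg, an actin capping gene, had a ratio of 27.8 (18.6 to 42.1). Foxp3, which defines regulatory T cells, had 0 UMIs in the gated cells and 3 in the other cells.

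The innate lymphoid list of 16 genes summed to 594 CPM in the gated cells and 298 CPM in the other cells, with 10 genes at 0 in the gated cells. Nkg7, a cytotoxic granule gene, had 191 CPM and 5.94 CPM, a ratio of 32.2 (25.4 to 40.9), was found in 74 of the 108 gated cells and passed only through them. Gzma, a granzyme gene and the other gene of the list that was compared, held 413 of the UMIs that the list had in the gated cells, with a ratio of 1.40 (1.26 to 1.54). The macrophage list of 12 genes held 34 UMIs in the gated cells (32.7 CPM) against 21.1 CPM in the other cells, 27 of those UMIs from Lyz2 in 20 cells. The dendritic list summed to 433 CPM in the gated cells and 138 CPM in the other cells, with 8 of 12 genes at 0 in the gated cells. Of its 451 UMIs in the gated cells 442 were of Bst2, its only compared gene, which the interferon list holds as well. For the B cell list the sums were 244 CPM and 471 CPM with 7 of 9 genes at 0, for the stroma list 173 CPM and 73.3 CPM with 9 of 13 at 0, and all 8 erythroid genes were at 0 in the gated cells.

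Of the mature single positive list 9 genes were compared, 4 of them higher and 4 lower, beside 7.07% and 9.53% of all compared genes. Of these 9, 2 passed only through the gated cells. The early progenitor list summed to 240.2 CPM in the gated cells and 930 CPM in the other cells. Most of the sum in the other cells came from Ccr9, given above among the double positive genes. Of the 2 compared genes of the list, Ccr9 was lower, while Hoxa7 was at least 2-fold higher and passed only through the gated cells. No direction is given for this list. Kit, the stem cell factor receptor gene, had 15 UMIs in 11 gated cells, and Spi1, the progenitor factor that T lineage cells switch off, had 2 UMIs. Cpa3, a mast cell protease gene that early T cell progenitors also transcribe, had 56 UMIs in 16 gated cells. The part of other cell types in the results was not tested. Without the 16 gated cells that carried a V-containing TRA contig, 4 or more Cpa3 UMIs or 20 or more Tcrg-C1 UMIs, 385 genes were higher and 582 lower. The number of genes compared without these cells is not given, so the counts are not shares.

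The receptor contigs gave a readout that the gate did not use. In turnover 17 of the 108 gated cells carried a productive TRB chain (15.7%, 9.45 to 24.0), against 3709 of the 4119 other cells (90.0%, 89.1 to 90.9). Most gated cells, 71 (65.7%, 56.0 to 74.6), had only TRB contigs without a variable segment, which hold a joining segment and the constant region and can come from unrearranged or partly joined alleles. Such cells were 197 (4.78%) of the others. A further 7 gated cells (6.48%) had a variable segment but no productive chain, and 13 (12.0%, 6.57 to 19.7) had no TRB contig, against 171 (4.15%) and 42 (1.0197%) of the other cells.

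A contig of some kind was found in 96 of 108 gated cells and 4077 of 4119 other cells. Among cells of 5000 or more UMIs the productive share was 17.02% (16 of 94) in the gated cells and 92.8% (633 of 682) in the other cells. Other cells without Cd8 shared the pattern only in part: 120 of the 161 with at most 1 Cd8 UMI and less than 2 Il2ra UMIs had a productive TRB chain (74.5%). Only contigs without a variable segment were found in 25 of them (15.5%), and no TRB contig in 12 (7.45%). A productive TRA chain was found in 96 of them (59.6%). Of the other cells with 2 or more Il2ra UMIs, 25 of 28 had a productive TRB chain (89.3%). A productive TRA chain was found in 2 gated cells (1.85%), against 1753 of the other cells (42.6%).

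**Figure D4:**
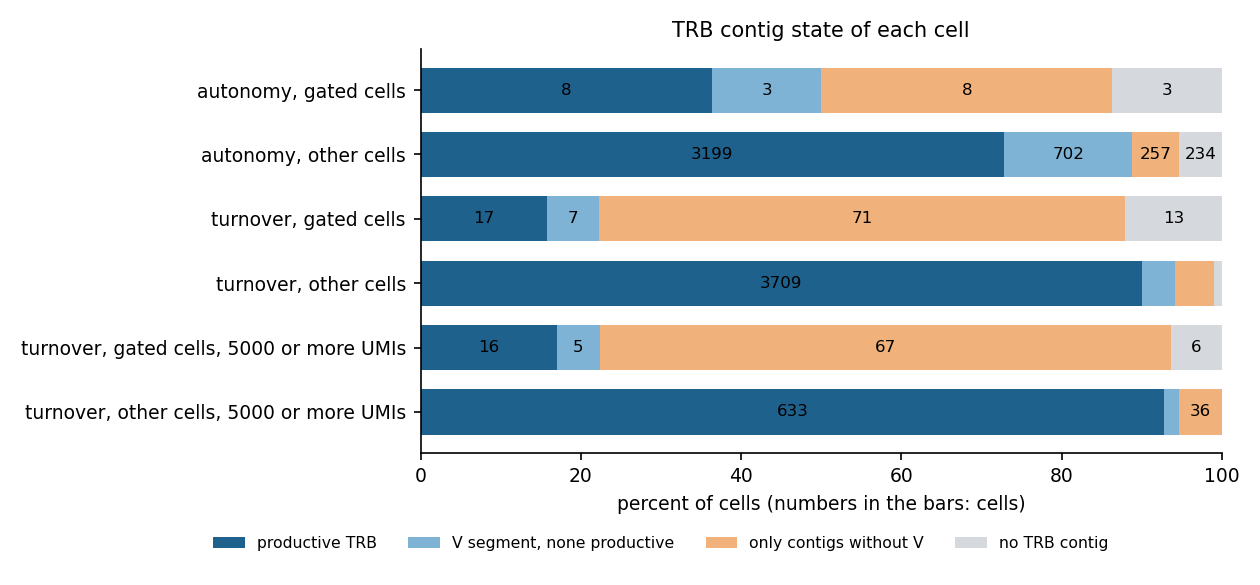
Percent of cells (x) by TRB contig state, with cell numbers inside the bars, for gated and other cells of autonomy and turnover and for turnover cells of 5000 or more UMIs. Contigs without a V segment dominate the bars of the gated turnover cells (71 of 108), and productive chains dominate the bars of the other turnover cells (3709 of 4119).

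The contigs of the gated turnover cells differed in make-up too. Contigs without a variable segment held 73.0% of their TRB contig UMIs (71.3 to 74.6), against 23.4% in the other cells (23.2 to 23.6). In cells without a productive chain the shares were 98.7% in the gated cells (98.1 to 99.2) and 63.8% in the other cells (62.8 to 64.8). Among all contigs without a variable segment the joining segment TRBJ2-1 was named in 48 of 85 from gated cells (56.5%) and 565 of 2135 from other cells (26.5%). TRBJ2 segments as a whole were named in 84.7% (75.3 to 91.6) and 77.3% (75.4 to 79.0).

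The expression library also read the locus, in the same cells, so it is not independent of the contigs. UMIs of Trbv segments numbered 0.427 per Trbc1 and Trbc2 UMI in the gated cells (0.393 to 0.462) and 1.44 in the other cells (1.43 to 1.46). Of 21 compared Trbv segments 20 were at least 2-fold lower in the gated cells, with a median of -3.67. Within the gated cells the number of Trbv UMIs per Trbc1 and Trbc2 UMI was 1.14 (1.01 to 1.30) in those with a productive chain. In those without it was 0.212 (0.187 to 0.238). A productive chain has a V segment, so this difference follows in part from the split.

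The 17 productive chains of turnover were nearly all different. A chain was called shared when another cell of the same V(D)J table had the same nucleotide CDR3, the joint-spanning loop that contacts antigen, with the same V and J segments. That held for 2 of 17 gated cells (11.8%, 1.46 to 36.4) and 162 of 3709 other cells (4.37%, 3.73 to 5.08). In autonomy it held for 7 of 8 gated cells (87.5%, 47.3 to 99.7) and for 85.4% of the other cells (84.1 to 86.6). The following CDR3 sequences are shown as the record of single rearrangements in gated turnover cells. Capitals mark the middle of the loop, the bases beyond the stretch that at least 20% of chains with the same V segment, or with the same J segment, have in common. All come from the TRB locus on chromosome 6 (RefSeq, GRCm38.p6, 40891296 to 41558371).

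Turnover, TRBV13-2 and TRBJ1-1, in 3 cells: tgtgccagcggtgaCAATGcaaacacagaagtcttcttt

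Turnover, TRBV13-1 and TRBJ1-1, in 2 cells: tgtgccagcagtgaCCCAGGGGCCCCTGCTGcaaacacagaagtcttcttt

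Turnover, TRBV1 and TRBJ1-2, in 1 cell: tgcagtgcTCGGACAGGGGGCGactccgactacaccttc

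Turnover, TRBV4 and TRBJ1-2, in 1 cell with a productive TRA chain: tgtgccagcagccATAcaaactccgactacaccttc

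The first pair were the shared chains of turnover. The gated cell with the TRBV13-2 chain was the deepest of the turnover set, with 27870 UMIs, 9 Il2ra UMIs, 10 Notch1 UMIs and 15 Mki67 UMIs, and its chain had 132 contig UMIs. The TRBV1 cell had 25455 UMIs with 3 of Il2ra and 4 of Mki67. The TRBV4 cell still had 16 Il2ra and 8 Ptcra UMIs although it held a productive alpha chain. Over all chains the middle measured a median of 10 bases in the gated turnover cells (17 chains, 3 to 17 bases) and 11 bases in the other cells (3897 chains).

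Gated turnover cells with a productive beta chain were then set against those without one, a split by a readout that the gate did not use. The 17 cells with a chain held a median of 15017 UMIs (2957 to 27870), against 8074 (1898 to 19944) in the 91 without. Of 5763 genes compared, 352 were at least 2-fold higher in the cells with a chain (6.11%) and 874 at least 2-fold lower (15.2%). After thinning to 1000 UMIs, 83 were higher and 106 lower. Fewer genes could be compared then, and their number is not given, so these counts are not to be set against the shares before thinning. The 17 cells also include the 2 with a productive TRA chain.

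Several genes of the DN3 stage had lower sums in the cells with a chain. Ptcra had 37 UMIs in the cells with a chain (139 CPM) and 398 in those without (514 CPM), a ratio of 0.270 (0.187 to 0.378). Tcrg-C1 had a ratio of 0.489 (0.388 to 0.612) and Notch1 one of 0.678 (0.517 to 0.879). After thinning, the ratio was 0.546 for Ptcra and 0.741 for Tcrg-C1, so neither kept a 2-fold difference. Runx1 had a ratio of 0.266 (0.169 to 0.402), Rag1 one of 0.330 (0.194 to 0.531) and the Dntt transferase gene one of 0.632 (0.557 to 0.716). Cdkn1a had 4 UMIs in the cells with a chain and 85 in those without, a ratio of 0.136 (0.0363 to 0.362).

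Some genes were higher in the cells with a chain, of which Id3, Cd28, Lef1 and Zap70 are given after their values were seen. The list of genes that T cell receptor signals induce had 4 compared genes in this split, with a median of 0.20. Of these, 1 was at least 2-fold higher and none lower, beside 6.11% and 15.2% of all genes compared in the split. Id3, an inhibitor of E proteins, had 57 UMIs in the 17 cells with a chain and 38 in the 91 without, a ratio of 4.35 (2.83 to 6.74). Cd28, a co-stimulatory receptor gene, had 27 and 25 UMIs, a ratio of 3.13 (1.75 to 5.62). Lef1 had a ratio of 2.59 (1.78 to 3.74), and Zap70 had 15 and 16 UMIs, a ratio of 2.72 (1.25 to 5.87), which was 1.34 after thinning. Cd3g had a ratio of 0.533 (0.481 to 0.590), and Trbc1 one of 1.08 (0.887 to 1.31).

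Division and biosynthesis genes were also higher in the cells with a chain. Of 32 compared S phase genes 19 were at least 2-fold higher and none lower, with a median of 1.11 beside -0.10 over all 5763 genes. Rrm2, a subunit of ribonucleotide reductase, had 106 UMIs in the cells with a chain and 74 in those without, a ratio of 4.15 (3.06 to 5.67), and the helicase gene Mcm5 had a ratio of 3.12 (2.196 to 4.45). Of 29 G2/M genes 11 were higher and none lower, with a median of 0.69. Over all 5763 genes 6.11% were higher and 15.2% lower. Of 19 genes of the Myc and ribosome biogenesis list 8 were higher and 1 lower, led by Odc1, the first enzyme of polyamine synthesis, at 4.43 (2.32 to 8.71). Myc itself had a ratio of 1.021 (0.798 to 1.30). Of 12 glycolysis genes 6 were higher, among them Ldha, lactate dehydrogenase A, at 2.76 (2.40 to 3.16).

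Mki67 was seen in 8 of the 17 cells with a chain and 12 of the 91 without. S phase and G2/M genes together made up a median of 0.824% of a cell's UMIs in the cells with a chain (0.117 to 1.999) and 0.258% in those without (0 to 2.68). Depth moved with this: among cells of 10000 or more UMIs, a limit chosen after seeing the data, the medians were 1.22% in 11 cells with a chain and 0.840% in 20 cells without. In thinned cells the median S phase share was 0.6% of UMIs with a chain and 0.2% without. Cells without a chain that had as large a cycle share were present, and their highest value was above that of any cell with a chain.

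**Figure D5:**
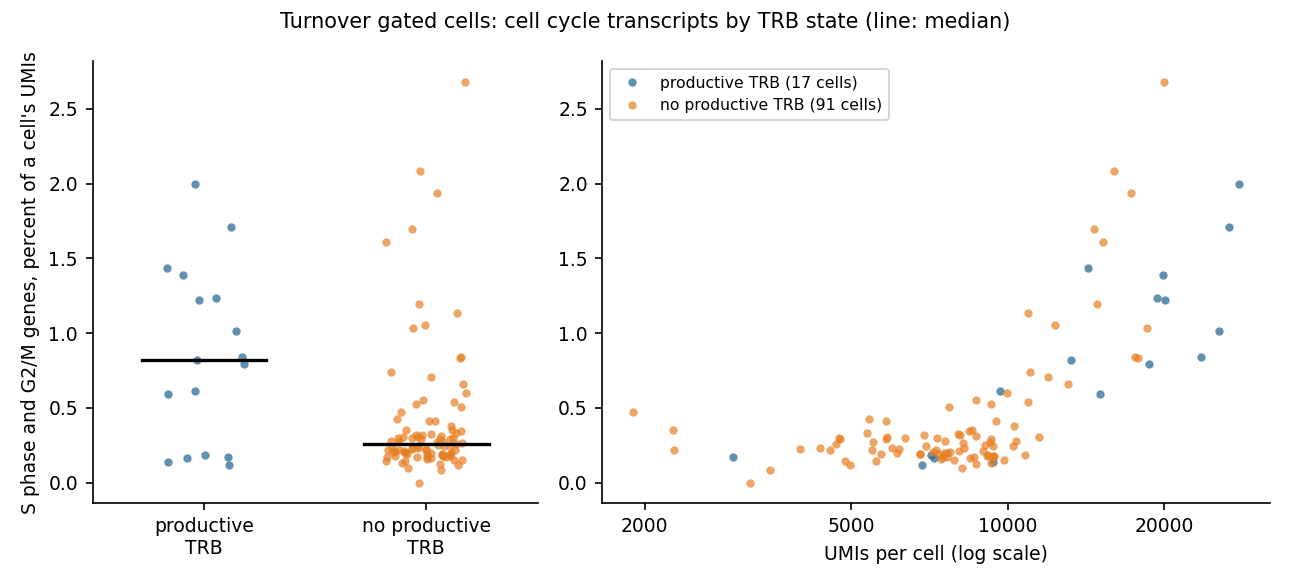
S phase and G2/M genes as percent of a cell's UMIs (y) in the gated turnover cells, by TRB state (left, line at the median) and against UMIs per cell on a log axis (right), with cells with a productive TRB chain in blue and cells without in orange. The medians are 0.824% in 17 cells with a chain and 0.258% in 91 cells without, the groups overlap, and the cells with high values are deep ones.

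Other lists were lower in the cells with a chain, where 15.2% of all genes compared in the split were lower. Of 7 compared interferon response genes 5 were at least 2-fold lower and none higher, with a median of -1.24. Rtp4 had 5 UMIs in the cells with a chain and 104 in those without, a ratio of 0.139 (0.0443 to 0.336), and Isg15 had 6 and 107. Of 13 cholesterol synthesis genes 6 were lower and none higher, with a median of -0.91. Cpa3 had 0 UMIs in the cells with a chain and 56 in 16 cells without, and it was among the lowest ratios with Trbv26, Calcoco1, AL590144.2, Tifa, Kdm4a and Ctdsp2. Trbv26 had 39 UMIs, of which 38 were in 1 cell without a chain. All 8 highest ratios were Trbv segments, led by Trbv20 and Trbv1, which follows in part from a split by chains that hold a V segment. For 4 of these segments the UMIs among the cells with a chain lay in 1 cell each.

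The 22 autonomy cells fell into unlike sets by their contigs and transcripts. By V(D)J, 8 had a productive TRB chain (36.4%, 17.2 to 59.3), against 3199 of the 4392 other cells (72.8%). Another 8 had only contigs without a variable segment, 3 had a variable segment but no productive chain and 3 had no TRB contig. The sets below were drawn after the values were seen, so they are a description.

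A productive TRA chain was found in 6 of the 22 cells. These 6 held 2 to 6 Il2ra UMIs each and 0 UMIs of Ptcra, Notch1, Dntt and Tcrg-C1. They held Cd5 (2 to 13 UMIs each), Cd27 (2 to 11) and Cd28 (1 to 8), receptor genes of cells past β-selection, and Trac in 3 cells and Cd4 in 3. All 6 had a productive TRB chain, and none had an Mki67 UMI. The regulatory T list had 4, 1, 23, 7, 23 and 22 UMIs in these cells, and 1 of them had 1 Foxp3 UMI, where that list stood at 560.2 CPM over all 22 gated autonomy cells and 249 CPM in the other autonomy cells. No cell type name is given to these 6 cells here, and the part of regulatory T cells was not tested. Turnover had 1 such cell, with 4 Il2ra UMIs, a productive TRB and TRA chain and 0 UMIs of the other 4 markers.

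A further 6 autonomy cells had Cpa3, with 4 to 11 UMIs in each, against 1 Cpa3 UMI in all 4392 other autonomy cells. All 6 had TRB contigs without a variable segment only. They held 6 to 18 Il2ra UMIs, Notch1 in 6 cells, Dntt in 6, Hes1 in 4 and Ptcra in 4. Tcrg-C1 had 0 UMIs, Cd3e was seen in 2 and Rag1 in 1.

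The remaining 10 cells were the nearest to the turnover cells. Ptcra had 105 UMIs in 9 of them (612 CPM), Notch1 70 in 9 (408 CPM), Dntt 148 in 8 (862 CPM) and Myl10 63 in 8 (367 CPM). Tcrg-C1 had 20 UMIs in 8 cells (117 CPM), below the 605 CPM of the gated turnover cells. Mki67 was seen in 7 of the 10. The exception, a cell of 2557 UMIs, had 0 UMIs of Ptcra, Notch1, Dntt and Tcrg-C1 and no TRB contig. It held 4 UMIs of Foxp3, the regulatory T cell factor, and 18 of the regulatory T list. Of these 10 cells, 2 carried the same TRBV13-2 and TRBJ2-7 chain, which was listed in 30 cells of the library, and they had 11 and 15 Il2ra UMIs.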

How the data were processed

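Single-cell UMI counts per gene and contig tables were used as deposited by the authors, who per the submitters' processing notes used Cell Ranger 3.0.2, Seurat 3.1.3.9002 and the mm10 genome. How cells were called, and against which annotation and V(D)J reference, is not given in the sources used here. Cells with at least 1000 UMIs were kept, and contigs were joined by barcode within a condition. The cells and the 39 gene lists (567 of 570 genes found) were chosen with earlier results of these data known.

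Counts were summed over cells and divided by all UMIs of the same cells. Ratios have exact conditional binomial 95% intervals and shares have Clopper-Pearson intervals. Both treat UMIs or cells as independent and cover counting error only. Folds against 0 UMIs use a floor of 3 counts per set of cells. Genes were named as the 15 highest and 15 lowest ratios, up to 4 per list, the 8 highest and 8 lowest of the TRB split, and the genes of lists on the pre-TCR, Notch, recombination and related roles. Other genes, among them Cpa3 and those of the autonomy sets, were chosen after their values were seen. Sums and intervals came from scipy 1.17.1, numpy 2.4.6 and pandas 2.3.3 in Python 3.11.15, figures from matplotlib 3.10.9, and edgeR 4.0.16 in R 4.3.3 gave TMM factors as an alternative scaling. The calculations were tested on simulated data. Sequences and positions are from RefSeq (GRCm38.p6), in which 25166 of 31053 gene symbols were found. Some genes that these rules name are not reported here.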

Additional observations from a re-analysis of the deposited data

How the results depend on the processing

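No paired analysis was possible because each condition had 1 library and the labels give no replicate numbers. Thinning every cell to 1000 UMIs before the gate gave shares of gated cells of 0.0906% in autonomy and 0.497% in turnover. Of the few gated autonomy cells left, 0% had a productive TRB chain. In turnover 122 genes were higher and 172 lower, from fewer gated cells than the 50 otherwise asked for a gene comparison. A minimum of 2000 UMIs per cell gave a turnover share of 4.54%. Thinning after the gate gave 114 genes higher and 236 lower, and a minimum of 100 UMIs per gene gave 93 and 199. Weighting cells equally gave 977 genes lower, cells of 5000 or more UMIs 405, and other cells with at most 1 Cd8 UMI as the comparison 264. Genes that passed by their expected count alone gave 153 higher. In the split by productive TRB chain, thinning gave 83 higher and 106 lower, and a minimum of 100 UMIs per gene, chosen after seeing the data, gave 96 and 110. Higher minimums and thinning leave fewer genes to compare. For most of these settings the number of genes compared is not given, so a smaller count is not to be read as a smaller share.

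The ratio turned round for Rag1 (1.29) and Dclre1c (1.17) among cells of 5000 or more UMIs, and for Rag1 (3.94) and Rag2 (3.78) against other cells with at most 1 Cd8 UMI. The cause was not tested. Of 1249 values for 74 named genes against the other cells, 244 moved and these 4 turned round, and of 274 values for 56 genes in the TRB split, 24 moved and 0 turned round. Turning round was counted only for genes 2-fold apart in the main setting, 52 of the 74 and 29 of the 56. Other genes crossed a ratio of 1 without being counted, among them Lck and Lat in cells of 5000 or more UMIs and Gata3 and Cd247 in the thinned split. The gated set is 108 cells in turnover and 22 in autonomy, so genes of few molecules could not be compared, and gene ratios were not computed for autonomy. Restricting contigs to those of high confidence changed nothing, since all listed contigs are.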
